A study of Mus musculus with 10 samples.

Results

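The mitochondrial ribosomal protein genes encode the protein parts of the ribosome that works inside mitochondria. They were taken from the deposited gene table by symbol, as Mrpl (large subunit) or Mrps (small subunit) followed by a digit, without pseudogene symbols and without genes under 1 CPM in every library (CPM is the count scaled to library size). This gave 77 genes, 48 Mrpl and 29 Mrps, of 55866 genes in the table, and all 77 were among the 15767 genes that passed the expression filter and were tested. Of the 78 symbols of the family, Mrpl53 was left out, with 7 reads in all libraries together, and 6 pseudogene symbols were left out by name. The highest of those pseudogenes, Mrpl23-ps1, reached 0.937 CPM.

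Mitochondria keep a small genome that encodes a few subunits of the respiratory chain and the ribosomal RNAs, and a dedicated ribosome translates those messages. All proteins of that ribosome are encoded in the nucleus, made in the cytosol and imported, so the organelle's ribosome is assembled from products of both genomes. Some of its proteins are homologues of bacterial ribosomal proteins and others are found only in mitochondria. The symbols do not always match the place: the products of Mrps18a and Mrps30 sit in the large subunit, and the product of Mrps36 is known as a part of the 2-oxoglutarate dehydrogenase complex.

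Bulk RNA sequencing of polyadenylated RNA was done in a mouse cell line that the labels name iKCs. Cells of all 4 groups carried a vector and were sorted as viable and positive for the fluorescent marker mOrange, so no group was untransduced. There were 3 libraries of miR-342-3p overexpression and 2 of its mutated miR-342-3p control. Another 3 libraries carried a miR-342-3p sponge, a transcript that binds the microRNA, and 2 carried a scramble control sponge. The labels call the libraries biological replicates of 1 line and do not say how cultures were separated, so the p-values describe the spread from library to library, which may be technical. Libraries held 25712732 to 59259988 counted read pairs, of which 61587 to 175036 lay in the 77 genes. The Mir342 gene was at 9.63 ± 1.54 CPM (SD, n = 3) with overexpression and at 3.04 ± 0.256 CPM (SD, n = 2) in its mutated control, with an adjusted p of 0.0123 in the edgeR quasi-likelihood test (Benjamini-Hochberg). It had 0 reads in the 5 sponge and scramble libraries, which at 3 counts allows up to 0.0892 CPM. Of 14 Kupffer cell and macrophage markers, 11 reached 1 CPM, while Clec4f and Timd4, which mark Kupffer cells, the resident macrophages of the liver, had 0 reads in every library and Vsig4 stayed under 1 CPM. Hepatocyte, stellate cell, lymphocyte, neutrophil and erythroid lists had 0 genes at 1 CPM or more. Of 5 endothelial markers, 3 reached 1 CPM, with a summed level of 28.8 to 31.1 CPM in the mutated control, 21.2 to 24.3 CPM with overexpression, 23.9 to 25.02 CPM with the sponge and 23.1 to 25.1 CPM in the scramble control. The part of these markers in the differences below was not tested.

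All 77 genes were expressed in every group, at mean levels of 6.57 to 76.1 CPM. Per kilobase of exonic length, the scale on which genes can be compared, the median member stood at 12.4 CPM per kilobase, with 14.2 for Mrpl genes and 8.73 for Mrps genes. The 3 highest levels per kilobase were those of Mrps21 at 59.1, Mrpl28 at 44.6 and Mrpl34 at 43.3, each a homologue of a bacterial ribosomal protein. At the other end were Mrps35 at 2.16, Mrpl33 at 2.47 and Mrpl17 at 2.84 CPM per kilobase. The highest level per kilobase was 27.4 times the lowest. Exonic length in the table is the union of all annotated exons, so a gene with a long, rarely used exon stands low on this scale.

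**Figure D1:**
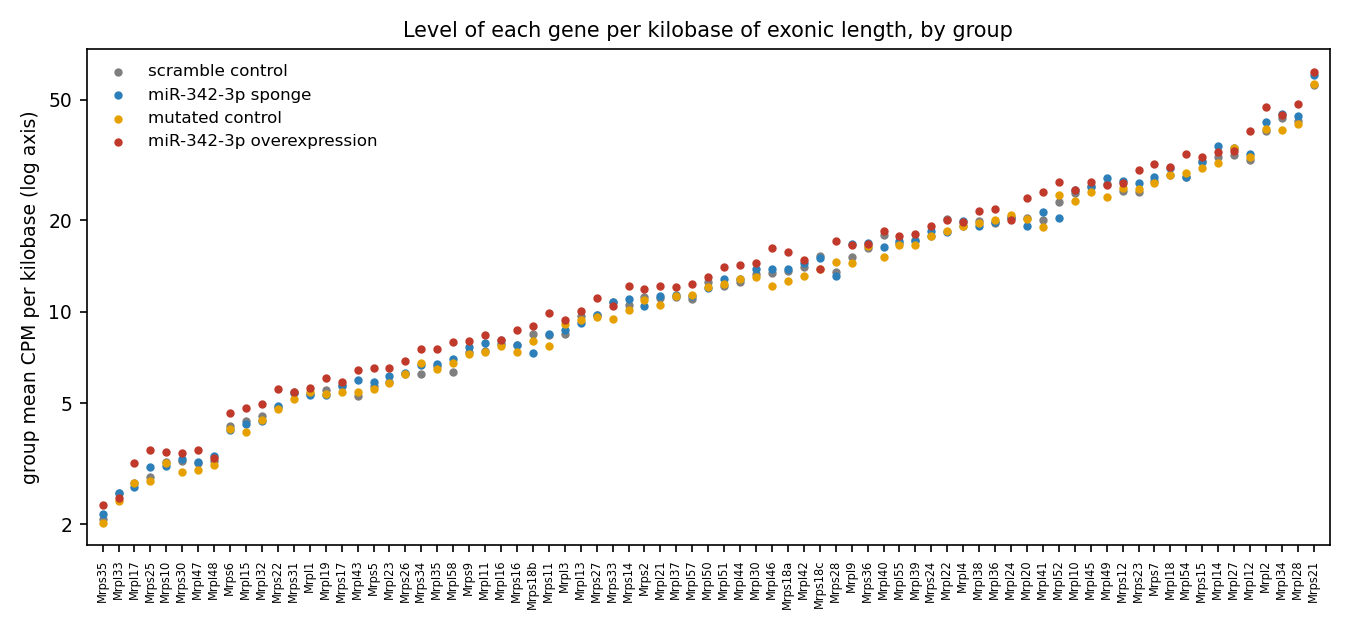
Group mean level of each of the 77 genes in CPM per kilobase of exonic length (vertical log axis), genes ordered by their mean over 10 libraries, colours giving the 4 vector groups. Levels run from 2.16 for Mrps35 to 59.1 for Mrps21, and the 4 group means of a gene lie close together beside that range.

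Within a gene the libraries differed little. The highest library stood a median of 1.34 times above the lowest, from 1.15 times for Mrps17 to 1.70 times for Mrps28. The spread within groups was largest for Mrps28, Mrpl58 and Mrpl21, with pooled SDs of 0.24, 0.20 and 0.20 on the log2 CPM scale. It was smallest for Mrpl40, Mrpl50 and Mrpl24, at 0.06 each. Mrpl58 encodes a peptidyl-tRNA hydrolase that became part of the large subunit and serves in the rescue of stalled ribosomes, and it was at 22.1 and 20.2 CPM in the scramble libraries, 22.1, 19.8 and 28.2 CPM in the sponge libraries, 22.6 CPM in both mutated control libraries and 30.7, 26.4 and 22.3 CPM in the overexpression libraries. Its 2 highest values were in overexpression replicate 1 and sponge replicate 3.

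That pair of libraries stood out for the family as a whole. Each gene's log2 CPM was set against its own mean over the 10 libraries, and the median of these deviations over the 77 genes was taken in each library. It was 0.24 in overexpression replicate 1, 0.07 in replicate 2 and -0.04 in replicate 3. The sponge libraries gave -0.06, -0.13 and 0.14, the mutated control libraries -0.08 and -0.05, and the scramble libraries -0.01 and -0.07. Overexpression replicate 3 lay between the 2 scramble libraries, the sponge libraries spanned both sides of 0, and the pooled within-group SD of these medians was 0.12. All 77 genes were above their own mean in overexpression replicate 1 and 71 were in sponge replicate 3, while 3 were in sponge replicate 2. Overexpression replicate 1 held the highest value for 64 of the 77 genes, where it held the highest value for 21.4% of all genes tested. It held the lowest value for 0 of the 77 and for 22.7% of all genes tested. Sponge replicate 2 held the lowest value for 39 of the 77, where it held the lowest value for 14.2% of all genes tested. Overexpression replicates 1, 2 and 3 held 59259988, 42867125 and 25712732 counted read pairs, the same order as their medians. In each of the other groups the deepest library had the lowest median. The part of depth in these values was not tested.

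**Figure D2:**
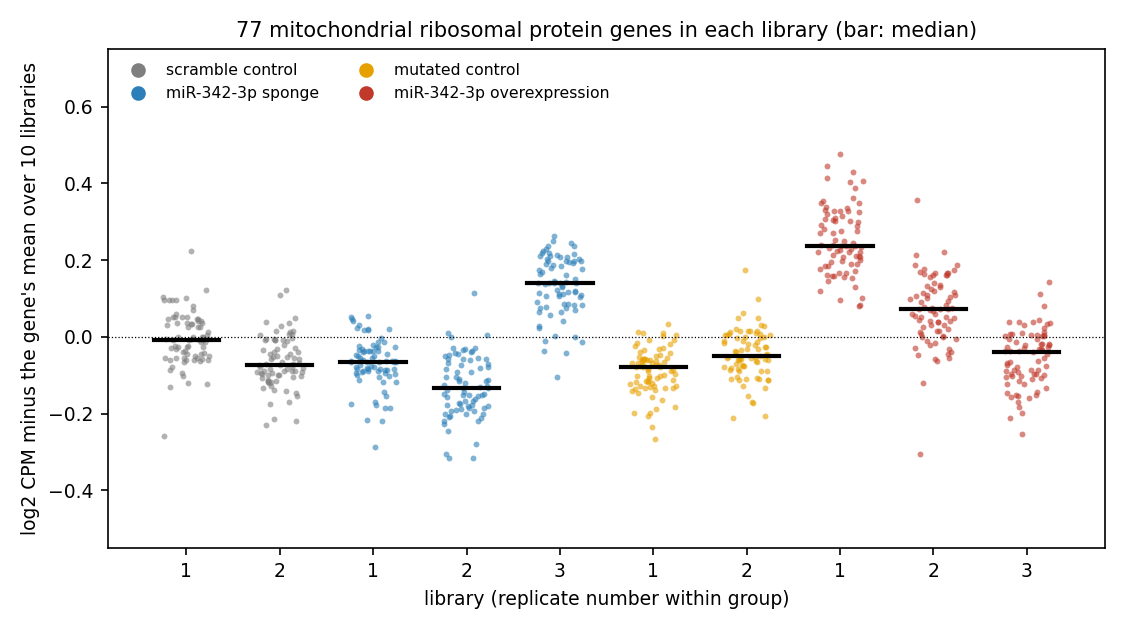
Log2 CPM of each of the 77 genes minus that gene's mean over the 10 libraries (vertical axis), by library (horizontal axis), coloured by vector group, with a bar at the median. Overexpression replicate 1 has its median at 0.24 and every gene above 0, sponge replicate 3 has its median at 0.14, and the other overexpression libraries lie at 0.07 and -0.04.

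The summed level was also highest in overexpression replicate 1 and next in sponge replicate 3. It was 2953, 2601 and 2395 CPM with overexpression, against 2342 and 2409 CPM in the mutated control. The sponge libraries held 2367, 2286 and 2736 CPM and the scramble libraries 2484 and 2370 CPM. Group means were 2650 ± 283 CPM (SD, n = 3) for overexpression, 2375 ± 46.9 CPM (SD, n = 2) for the mutated control, 2463 ± 240 CPM (SD, n = 3) for the sponge and 2427 ± 81.0 CPM (SD, n = 2) for the scramble control. The overexpression and mutated control libraries overlapped, since overexpression replicate 3 lay between the 2 mutated control libraries. In bulk RNA, more of these transcripts per cell and a different mix of cells cannot be told apart.

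The 77 genes went up and down together between libraries of 1 group. After the group means were removed, the mean correlation between pairs of members over the 10 libraries was 0.81, and 99.9% of the 2926 pairs had a correlation above 0. Over all genes tested the mean was 0.00. Cytosolic ribosomal protein genes (88 genes) gave 0.83 and nuclear genes of oxidative phosphorylation subunits (80 genes) gave 0.81, so the mitochondrial ribosomal set did not stand apart from those 2 sets. These correlations rest on 6 residual degrees of freedom and share the libraries' scaling, and are given as a description. The members least tied to the others were Mrpl24, with a mean correlation of 0.52, and Mrps18b, with 0.54. Of their exonic bases, 26.3% and 30.5% are shared with a gene on the other strand, and counting ignored strand. The part of that overlap was not tested.

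Transcript length moved with the same libraries. The members were shorter than other genes, with a median exonic length of 2533 bases against 3661 for all genes tested. In overexpression replicate 1 and sponge replicate 3 the slope of the deviation on log2 length over all genes was -0.02 for both, and the longest genes, those of 6005 bases or more, had median deviations of -0.14 and -0.08. In overexpression replicates 2 and 3 the slope was 0.02 for both. A fit with length-dependent offsets for each library left a median log2 fold change of 0.15 between overexpression and mutated control. With these offsets 72 of 77 members were above 0 and 0 passed the threshold, where 1.97% of all genes passed. The part of length in the values of single libraries was not tested beyond that fit.

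The first comparison set miR-342-3p overexpression against the mutated control. The 77 genes lay mostly on the higher side with overexpression, with a median log2 fold change of 0.16 (1.12-fold) where the median over all genes was -0.01. Of the 77, 75 were above 0, where 48.8% of all genes tested were, and the fold changes ran from -0.05 to 0.42 on the log2 scale. Mrpl and Mrps genes had medians of 0.16 each. None of the 77 passed an adjusted p of 0.05 in the edgeR quasi-likelihood test, and 0.539% of all genes did. By DESeq2 1 member passed, Mrpl40, where 3.17% of all genes did, and by limma-voom 0 did, where 0.59% of all genes did. At an unadjusted p under 0.05 there were 18 members (23.4%), all higher, against 18.2% of all genes. That count was 7 without overexpression replicate 1, where 0.37% of all genes passed the adjusted threshold. It was 39 without overexpression replicate 3, where 1.78% of all genes passed it. The share of all genes under the unadjusted level was not counted in these fits. The 3 overexpression libraries lay wholly above the 2 mutated control libraries for 28 members (36.4%) and wholly below for 0, where 18.9% of all genes lay wholly above and 19.3% wholly below. Without overexpression replicate 1 the median fell to 0.08 on the log2 scale with 61 of 77 above 0, and without overexpression replicate 3 it was 0.25. Set against the scramble control instead, overexpression gave a median of 0.14, with 72 of 77 above 0. There 0 members passed the threshold, beside 0.0444% of all genes. When genes of low counts were kept in the fit, 6 members passed (Mrpl41, Mrps25, Mrpl46, Mrps11, Mrpl12 and Mrps18a), beside 4.67% of the 29774 genes in that fit. The ribosomal RNA gene Rn18s-rs5 moved with this comparison: it was at 557, 563 and 602 CPM with overexpression and at 1320 and 938 CPM in the mutated control, without overlap. It was at 923 and 697 CPM in the scramble control and at 683, 559 and 576 CPM with the sponge, and its part in the result was not tested.

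**Figure D3:**
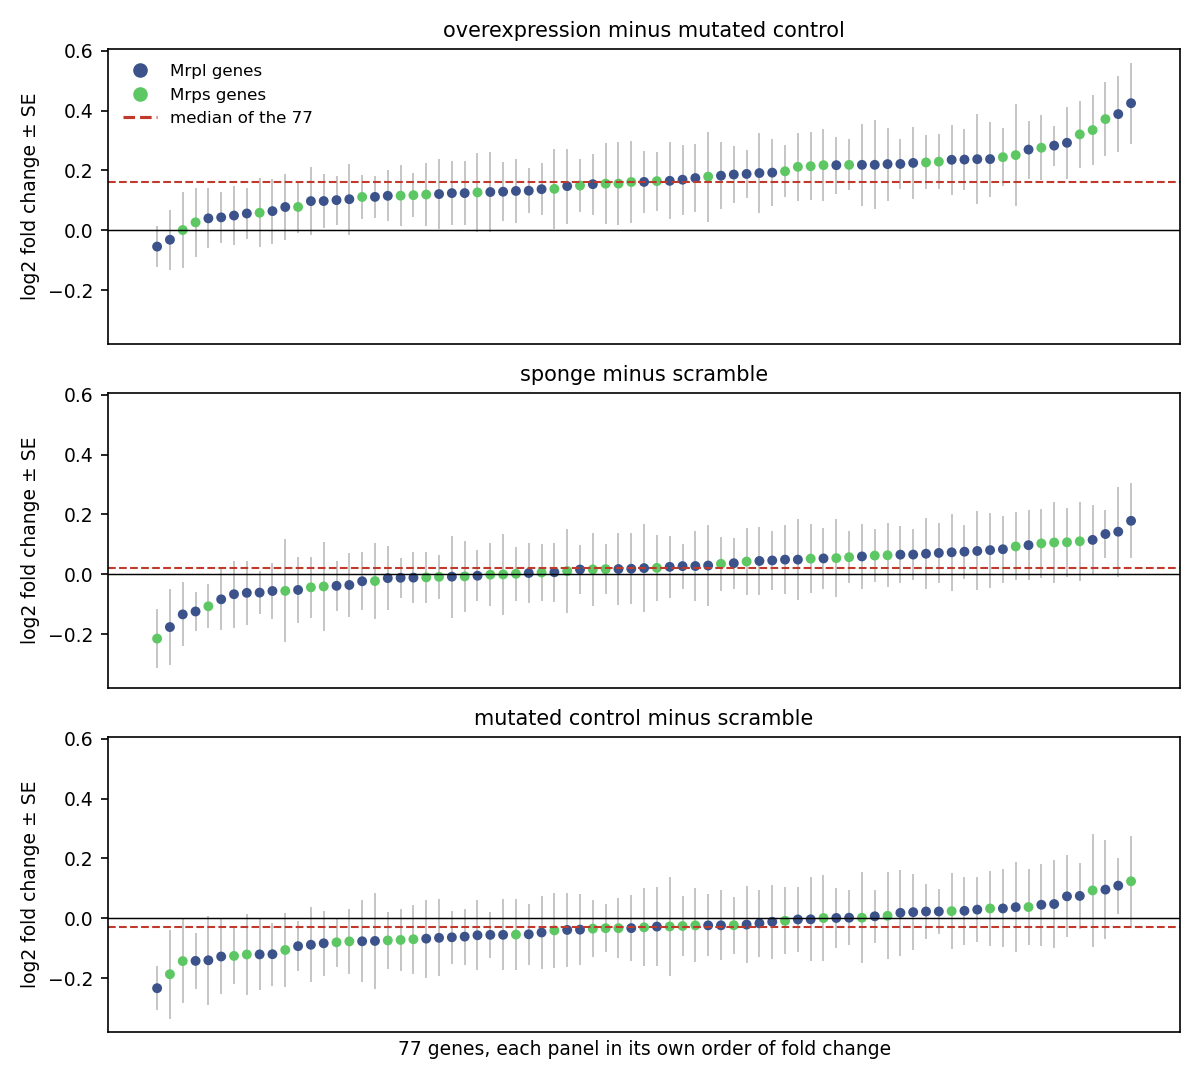
Log2 fold change of each of the 77 genes with its standard error (vertical axis) in 3 comparisons, each panel in its own order of fold change; colours give Mrpl and Mrps genes and the dashed line the median. With overexpression against the mutated control 75 genes lie above 0 with a median of 0.16, while the medians of the other comparisons are 0.02 and -0.03.

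The 4 highest fold changes belonged to Mrpl46, Mrpl41, Mrps11 and Mrps25. Mrpl46, a mitochondria-specific protein of the large subunit, was at 27.6, 21.3 and 19.9 CPM with overexpression and at 17.2 and 17.1 CPM in the mutated control. All 3 overexpression libraries were above both mutated control libraries, and replicate 1 stood well above the other two (log2 fold change 0.42, SE 0.14, edgeR adjusted p = 0.161). Without overexpression replicate 1 its log2 fold change was 0.26. The sponge libraries held 19.0, 17.6 and 22.3 CPM of Mrpl46 and the scramble libraries 19.0 and 18.9 CPM, so overexpression replicate 3 lay inside the range of the sponge libraries.

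Mrps11, a homologue of a bacterial protein of the small subunit, was at 23.8, 21.8 and 18.9 CPM with overexpression and at 17.2 and 16.2 CPM in the mutated control, again without overlap (log2 fold change 0.37, SE 0.12, edgeR adjusted p = 0.174). Mrpl41, a large subunit protein found only in mitochondria, had 25.3, 21.3 and 19.6 CPM against 16.2 and 17.7 CPM (log2 fold change 0.39, edgeR adjusted p = 0.167). Mrps25 had 24.5, 23.0 and 21.4 CPM against 17.8 and 18.7 CPM (log2 fold change 0.34, edgeR adjusted p = 0.185). Of the exonic bases of Mrps25, 69.8% are shared with Nr2c2 on the other strand, and counting ignored strand, so its reads cannot be told from those of that gene.

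Mrpl46 and Mrps11 are neighbours that start back to back. In the coordinates of the deposited table Mrpl46 lies on chromosome 7 at 78424984 to 78433279 on the minus strand and Mrps11 at 78432867 to 78442737 on the plus strand. By their outermost annotated exons the genes overlap, with starts 412 bases apart. The RefSeq promoter windows shown further below are set on other starts, so the distance differs there. The overlap takes 12.2% of the exonic bases of Mrpl46 and 7.97% of those of Mrps11.

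Other members were chosen by role, as parts of the ribosome that bind factors, read the code or form the core. Mrpl12 forms the stalk that recruits translation factors, and it was at 69.7, 58.9 and 52.8 CPM with overexpression and at 49.4 and 49.6 CPM in the mutated control (edgeR adjusted p = 0.241, log2 fold change 0.29, SE 0.12). Its groups did not overlap. The sponge libraries held 47.6, 46.8 and 58.0 CPM and the scramble libraries 50.3 and 46.5 CPM of Mrpl12, so sponge replicate 3 came near overexpression replicate 2. Without overexpression replicate 1 the log2 fold change of Mrpl12 was 0.18.

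Mrpl11, which lies at the base of the stalk, differed by 0.19 on the log2 scale, Mrpl44 by 0.16 and Mrpl58 by 0.24. Mrps16 and Mrps22, proteins of the small subunit, differed by 0.24 and 0.23, and Mrps34 by 0.16. Without overexpression replicate 1 the log2 fold changes of Mrpl11, Mrpl44, Mrpl58 and Mrps34 were 0.09, 0.06, 0.12 and 0.06. Of the exonic bases of Mrps34, 77.8% are shared with other genes. Mrps12, the homologue of a bacterial protein of the decoding centre, was at 31.1, 27.4 and 24.4 CPM with overexpression and at 25.9 and 27.4 CPM in the mutated control, which overlap (log2 fold change 0.06). Mrpl3, a core protein of the large subunit, differed by 0.04, and its groups overlapped.

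The family of 3 paralogues of bacterial S18 gave 3 different values. Mrps18a was at 65.5, 56.2 and 53.0 CPM with overexpression and 47.3 and 46.1 CPM in the mutated control (edgeR adjusted p = 0.189, log2 fold change 0.32, SE 0.11), without overlap. Mrps18b was at 19.7, 19.8 and 16.6 CPM against 16.8 and 16.7 CPM (log2 fold change 0.16), with replicate 3 just below both mutated control libraries. Mrps18c was at 17.6, 12.6 and 14.5 CPM against 14.7 and 15.1 CPM, a log2 fold change of 0.00 that changed sign under several other settings. Of the exonic bases of Mrps18c, 23.2% are shared with another gene, Gm43511. The difference between the paralogues was not tested.

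Only 2 members had a fold change below 0 in this comparison. Mrpl24 was at 48.7, 42.3 and 44.9 CPM with overexpression and at 47.1 CPM in both mutated control libraries (log2 fold change -0.05, SE 0.07). Mrpl27, a large subunit protein near the peptidyl transferase centre, was at 37.5, 32.4 and 29.9 CPM against 33.6 and 34.5 CPM (log2 fold change -0.03, SE 0.10). Both genes had overlapping groups. Mrpl24 came out above 0 without overexpression replicate 2, at 0.00, and Mrpl27 without overexpression replicate 3, at 0.05. Next in order came Mrps18c and Mrps36, the latter at 0.03.

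Mrpl40, a mitochondria-specific protein of the large subunit, had the smallest adjusted p of the 77 and the smallest spread within groups. It was at 34.1, 32.8 and 30.6 CPM with overexpression and at 26.1 and 27.4 CPM in the mutated control, so the groups did not overlap (log2 fold change 0.28, SE 0.07, edgeR adjusted p = 0.0924). The scramble libraries held 32.2 and 30.7 CPM of Mrpl40, which is inside the range of overexpression, and the sponge libraries 29.2, 28.3 and 29.1 CPM, between the scramble and the mutated control. The order of its group means was thus overexpression, scramble, sponge and mutated control, and the mutated control stood lowest. In that order overexpression and scramble libraries overlapped, and the other neighbouring groups did not. The adjusted p of Mrpl40 was 0.0203 by DESeq2, 0.0899 by limma-voom and 0.046 by edgeR without overexpression replicate 3. Over 21 alternative settings it ran from 0.0203 to 0.764, the highest being overexpression set against the scramble control (log2 fold change 0.05). Mrpl40 starts 175 bases from Hira, which lies on the other strand, and shares no exonic base with another gene.

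**Figure D4:**
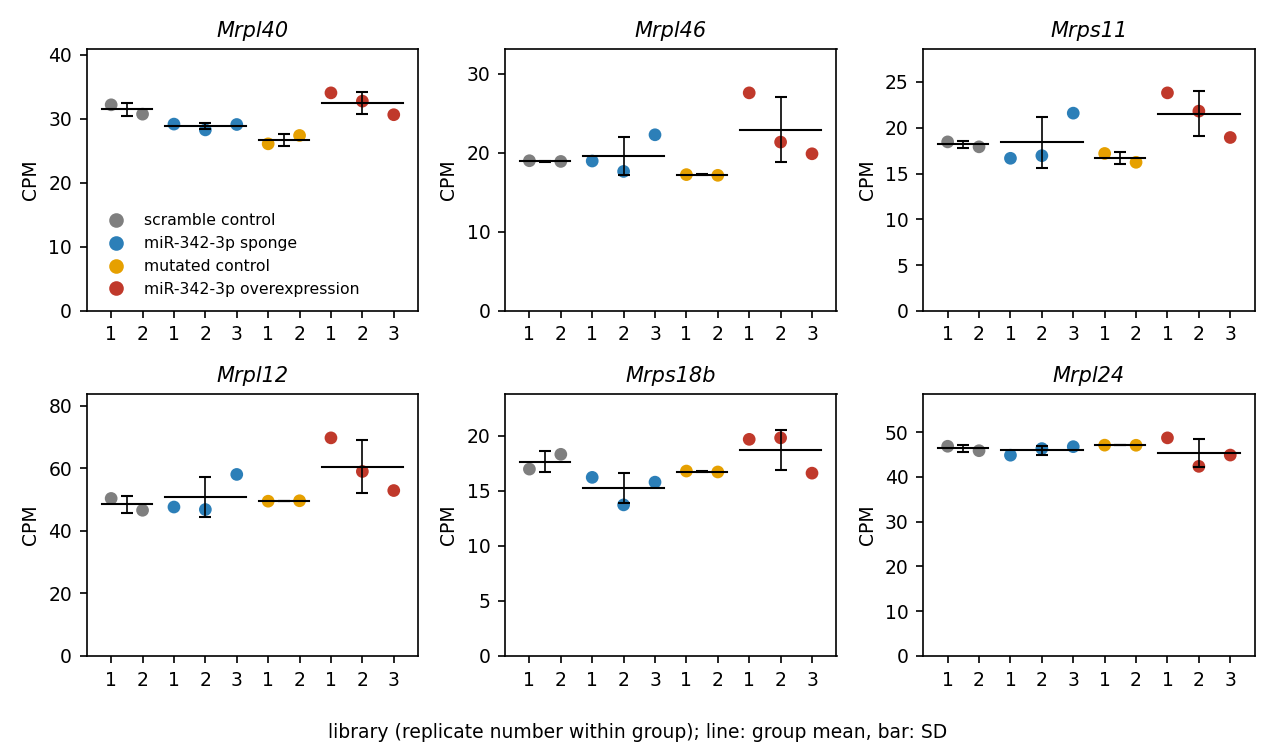
CPM of 6 members in each library (points, coloured by vector group), with the group mean as a line and the SD as a bar; vertical axes start at 0. Mrpl40 is lowest in the mutated control at 26.1 and 27.4 CPM, Mrpl46, Mrps11 and Mrpl12 are highest in overexpression replicate 1, and Mrpl24 stays between 42.3 and 48.7 CPM in all libraries.

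The second comparison set the miR-342-3p sponge against the scramble control. The median log2 fold change of the 77 was 0.02, beside -0.00 over all genes, with 49 members above 0 (63.6%, beside 49.3% of all genes). None of the 77 passed the edgeR threshold, 0 were under an unadjusted p of 0.05, and DESeq2 and limma-voom each called 0. In edgeR 0% of all genes tested passed the adjusted threshold and 2.33% the unadjusted one. By DESeq2 0.00634% of all genes passed and by limma-voom 0%. Without sponge replicate 3 the median was -0.05 with 7 of 77 members above 0, and without sponge replicate 2 it was 0.09. The sponge libraries lay wholly above the scramble libraries for 1 member, Mrps35, and wholly below for 3, Mrpl50, Mrpl40 and Mrps18b, where 6.9% of all genes lay wholly above and 8.3% wholly below.

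Mrps18b stood lowest in this comparison, at 16.2, 13.7 and 15.8 CPM with the sponge against 17.0 and 18.3 CPM in the scramble control (log2 fold change -0.21, SE 0.10, edgeR adjusted p = 1). Of its exonic bases, 30.5% are shared with a gene on the other strand. Mrpl52 followed at -0.18, with 21.2, 21.3 and 25.2 CPM against 25.1 and 25.8 CPM, so sponge replicate 3 reached the scramble range. Mrpl22, which lines the exit tunnel, stood at -0.13 and had 17.8, 16.5 and 19.6 CPM against 22.0 and 17.6 CPM. That value rested on scramble replicate 1, without which it was 0.03. Mrpl40 stood at -0.12.

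The highest members with the sponge were Mrpl43 at 0.18, Mrpl58 at 0.14, Mrpl9 at 0.13 and Mrpl14 at 0.11 on the log2 scale. Mrpl43 had 8.20, 8.68 and 10.4 CPM against 8.5 and 7.61 CPM in the scramble control, with overlap, and its log2 fold change was 0.07 without sponge replicate 3. Of its exonic bases, 33.4% are shared with Twnk on the other strand. Mrpl9 had 44.5, 41.8 and 48.9 CPM against 42.9 and 39.3 CPM, also with overlap. Mrpl58 came out at -0.01 without sponge replicate 3.

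The third comparison set the 2 control vectors against each other, as a measure of the background between vectors. The median log2 fold change of the 77, mutated control minus scramble, was -0.03 (0.00 over all genes), with 25 members above 0. In the edgeR test 0 of the 77 passed, beside 0.0254% of all genes, and 1 member, Mrpl40, was under an unadjusted p of 0.05, beside 6.47% of all genes. DESeq2 and limma-voom called 0 members, beside 0.571% and 0.0254% of all genes. The mutated control lay wholly above the scramble control for 7 members (9.09%) and wholly below for 19 (24.7%), where 24.1% and 24.2% of all genes did so.

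Mrpl40 was lower in the mutated control by a log2 fold change of -0.23 (SE 0.07, edgeR adjusted p = 0.525), nearly as large as its difference between overexpression and the mutated control. With only these 2 groups in the fit its edgeR adjusted p was 0.0417, beside 3.79% of the genes in that fit. Over 20 alternative settings its adjusted p ran from 0.0417 to 1.00 (without scramble replicate 1). Mrps33 stood at -0.19, Mrps18c and Mrpl49 at -0.14 each. Mrps33 had 14.3 and 17.2 CPM in the mutated control against 18.5 and 17.4 CPM, and without mutated control replicate 1 its log2 fold change was -0.06. On the higher side were Mrps28 and Mrps34 at 0.09 and 0.12, Mrpl3 at 0.11 and Mrpl58 at 0.10. Mrps28 had 11.3 and 11.5 CPM against 9.48 and 11.7 CPM, and without scramble replicate 1 its log2 fold change was -0.04. Without scramble replicate 2, Mrps34 stood at 0.02 and Mrpl58 at 0.03.

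The difference of the 2 vector effects (overexpression minus mutated control, less sponge minus scramble) was tested in the same fit. Its median over the 77 was 0.14 on the log2 scale, with 73 members above 0, and 0 members passed in the edgeR test, in DESeq2 or in limma-voom. Of all genes tested 0% passed in edgeR, 0.304% in DESeq2 and 0% in limma-voom. In edgeR 8.06% of all genes were under an unadjusted p of 0.05. There were 4 members (5.19%) under that level, Mrpl40, Mrps18b, Mrpl20 and Mrpl17. That count was 19 without sponge replicate 3, where 0.0445% of all genes passed the adjusted threshold. It was 18 without overexpression replicate 3, where 0.00638% did, and 1 or 2 without any other sponge or overexpression library. The share of all genes under the unadjusted level was not counted in these fits. The largest differences were those of Mrpl40 at 0.41 (SE 0.09, edgeR adjusted p = 0.338), Mrps18b at 0.38, Mrpl46 at 0.37 and Mrps11 at 0.35. The lowest were Mrpl27 at -0.10, Mrps12 at -0.05, Mrpl24 at -0.04 and Mrps36 at -0.03. The median was 0.05 without overexpression replicate 1 and 0.23 without sponge replicate 3. Without sponge replicate 3 Mrpl27 stood at -0.02.

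In the test of any difference among the 4 groups, 0 of the 77 passed in edgeR, beside 0.419% of all genes, and 8 members (10.4%) were under an unadjusted p of 0.05, beside 16.1% of all genes. The smallest adjusted p was that of Mrpl40 (edgeR adjusted p = 0.157). DESeq2 called 1 member, Mrpl40, beside 5.38% of all genes, with an adjusted p of 0.0372, the lowest of 19 alternative settings, of which the highest was 0.513. Limma-voom called 0.

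Promoters were read for 68 of the 77 genes from RefSeq (GRCm38.p6), each window running from 250 bases before to 50 bases after the start. Factors known to act at genes of mitochondrial proteins include NRF1, GABPA and other ETS factors, and YY1. The following windows are shown because they belong to the back-to-back pair with the highest and third-highest fold change with overexpression, to the gene with the smallest adjusted p, and to 1 example each of a YY1, an ETS and an NRF1 match. Capitals mark matches to 1 of the 6 motifs searched, on either strand.
Mrpl46 (chr7:78783040-78783339, minus strand): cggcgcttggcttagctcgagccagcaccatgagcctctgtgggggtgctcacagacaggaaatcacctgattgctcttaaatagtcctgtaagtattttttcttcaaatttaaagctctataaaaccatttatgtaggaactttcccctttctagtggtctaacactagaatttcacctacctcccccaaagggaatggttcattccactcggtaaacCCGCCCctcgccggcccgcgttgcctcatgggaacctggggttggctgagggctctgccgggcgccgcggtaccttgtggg
Mrps11 (chr7:78782881-78783180, plus strand): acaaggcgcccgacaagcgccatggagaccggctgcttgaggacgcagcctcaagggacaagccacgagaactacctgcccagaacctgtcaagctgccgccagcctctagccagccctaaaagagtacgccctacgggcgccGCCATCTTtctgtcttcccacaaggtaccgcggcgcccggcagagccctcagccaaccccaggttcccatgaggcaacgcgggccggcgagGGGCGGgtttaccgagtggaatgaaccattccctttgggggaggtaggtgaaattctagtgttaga
Mrpl40 (chr16:18876588-18876887, minus strand): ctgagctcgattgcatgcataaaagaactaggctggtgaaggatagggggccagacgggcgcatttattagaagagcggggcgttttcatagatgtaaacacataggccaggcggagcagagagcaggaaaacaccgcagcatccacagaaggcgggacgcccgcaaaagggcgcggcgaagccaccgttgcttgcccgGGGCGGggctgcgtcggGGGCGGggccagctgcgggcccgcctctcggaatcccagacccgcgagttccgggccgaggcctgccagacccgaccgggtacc
Mrps18a (chr17:46110754-46111053, plus strand): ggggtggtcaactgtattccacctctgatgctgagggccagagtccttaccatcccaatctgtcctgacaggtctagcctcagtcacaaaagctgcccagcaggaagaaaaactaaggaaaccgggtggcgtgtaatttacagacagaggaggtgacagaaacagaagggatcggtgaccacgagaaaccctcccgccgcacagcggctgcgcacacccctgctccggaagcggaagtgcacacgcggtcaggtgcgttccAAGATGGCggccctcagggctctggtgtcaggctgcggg
Mrps22 (chr9:98601630-98601929, minus strand): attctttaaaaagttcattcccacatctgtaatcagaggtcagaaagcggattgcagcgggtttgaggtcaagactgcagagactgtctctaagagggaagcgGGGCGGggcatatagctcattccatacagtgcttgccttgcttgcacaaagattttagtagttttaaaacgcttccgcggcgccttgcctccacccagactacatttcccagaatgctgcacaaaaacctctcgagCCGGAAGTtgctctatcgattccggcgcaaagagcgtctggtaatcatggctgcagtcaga
Mrpl17 (chr7:105811038-105811337, minus strand): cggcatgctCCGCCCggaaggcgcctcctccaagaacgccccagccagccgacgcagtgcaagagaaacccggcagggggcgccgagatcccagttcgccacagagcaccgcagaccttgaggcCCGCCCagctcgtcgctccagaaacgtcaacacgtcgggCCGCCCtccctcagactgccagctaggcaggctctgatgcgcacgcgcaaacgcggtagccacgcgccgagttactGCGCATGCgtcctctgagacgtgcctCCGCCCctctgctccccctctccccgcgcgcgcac

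The motifs were searched as exact letters on both strands, with matches allowed to overlap each other. The YY1 motif AAGATGGC was in 12 of 68 member windows (17.6%), beside 4.73% of 10530 windows of genes tested and 2.75% of all 32851 windows. The ETS motif CCGGAAGT was in 11 (16.2%), beside 8.62% and 3.89%. The NRF1 motif GCGCATGC was in 8 (11.8%), beside 5.37% and 2.71%. The SP1 motif GGGCGG was in 34 of the 68, beside 62.6% and 35.7%, the E-box CACGTG in 5 (7.35%), beside 1058 of the 10530 windows and 7.15%, and the CREB motif TGACGTCA in 2 (2.94%), beside 3.29% and 1.79%. A match is a description of the letters and not a site.

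At least 1 of the NRF1, ETS and YY1 motifs was in 28 of the 68 windows (41.2%), beside 17.5% of the windows of genes tested. Counted from the start, the YY1 match of Mrps11 begins at position -107 and that of Mrps18a at position 12. The ETS match of Mrps22 and the NRF1 match of Mrpl17 both begin at position -11. The windows of Mrpl40 and Mrpl46 held SP1 matches and none of the other 5 motifs. The windows of Mrpl46 and Mrps11 overlap, however, and their SP1 matches are the same bases read on opposite strands, counted once for each gene. The YY1 match of Mrps11 lies just outside the Mrpl46 window. The motif counts of this pair are therefore not independent. Members with and without 1 of the 3 motifs had like fold changes with overexpression, with medians of 0.15 (28 genes) and 0.16 (40 genes) on the log2 scale. A tested gene on the other strand began within 1000 bases of the start for 34 of the 77 members (44.2%), where 22.3% of genes tested had one.

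The microRNA of the vectors pairs with messages mainly through its seed, bases 2 to 8, in capitals below. The target match shown is the 1 member site with the full match to the seed and a following A, also in capitals, in the 3′ UTR of Mrps26 (GENCODE vM21).
mmu-miR-342-3p: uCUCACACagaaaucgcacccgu
Mrps26: agctacagggaGTGTGAGAccaacctgatt

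Of the 77 members, 11 (14.3%) had a match to the seed, GTGTGAG, in the longest annotated 3′ UTR, beside 15.2% of 11910 genes tested with a UTR. A match followed by A was in 1 member (1.3%), beside 4.73% of genes tested. Members had short UTRs, with a median of 390 bases against 1130. The 11 genes with a match had a median log2 fold change of 0.19 with overexpression and the 66 without one had 0.16. With the sponge the medians were -0.00 and 0.03. Mrps26 itself was at 35.1, 29.6 and 25.7 CPM with overexpression and at 28.0 and 26.3 CPM in the mutated control, with overlap (log2 fold change 0.16, edgeR adjusted p = 0.547).

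Other genes of mitochondrial translation, from lists by function, were set beside the family. In the edgeR test 0 genes of these lists passed an adjusted p of 0.05 in any of the 4 contrasts. Of 5 ribosomal proteins without an Mrp symbol, 5 had a fold change above 0 with overexpression (median 0.16). Dap3, a GTP-binding protein of the small subunit, is named because it had the smallest p of these 5 in the edgeR test. It was at 68.9, 59.5 and 56.3 CPM against 50.7 and 49.0 CPM in the mutated control (log2 fold change 0.31, edgeR adjusted p = 0.169), without overlap. Of 14 translation factors 9 were above 0 (median 0.09), with the elongation factor gene Tufm at 0.13. The 3 of 14 under an unadjusted p of 0.05 in the edgeR test, beside 18.2% of all genes, were Mtif3 and Tsfm at 0.25 each and Guf1 at -0.17. Of 23 assembly factors and ribosomal RNA modifying enzymes 19 were above 0 (median 0.10), and of 17 mitochondrial aminoacyl-tRNA synthetases 11 were (median 0.04). All 15 protein import genes were above 0 (median 0.16). Under the same unadjusted level were 2 of the 5 ribosomal proteins, 4 of the 23 assembly and modifying genes, 5 of the 17 synthetases and 1 of the 15 import genes.

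Genes of mitochondrial transcription and RNA maturation had 16 of 20 above 0 (median 0.11). Of the 20, 6 were under an unadjusted p of 0.05 in the edgeR test, beside 18.2% of all genes. Polrmt, the mitochondrial RNA polymerase, is named because it had the smallest p of the 20. It was at 40.7, 43.4 and 40.6 CPM with overexpression and at 36.0 and 34.1 CPM in the mutated control, without overlap and with replicates 1 and 3 nearly level (log2 fold change 0.25, SE 0.07, edgeR adjusted p = 0.127). Among 10 transcription factors known for genes of mitochondrial biogenesis, 5 were above 0 (median 0.01) and 2 were under that unadjusted level. Myc was at 89.0, 88.6 and 68.2 CPM with overexpression, 59.8 and 65.9 CPM in the mutated control, 45.3 and 53.3 CPM in the scramble control and 42.1, 37.7 and 60.3 CPM with the sponge. Its overexpression libraries were above all others, with a log2 fold change of 0.39 against the mutated control (SE 0.18, edgeR adjusted p = 0.286). Gabpb1 and Esrra had smaller edgeR adjusted p-values than Myc, 0.202 and 0.214, with log2 fold changes of 0.21 and 0.19. Below 0 were Gabpb2 at -0.33, Ppargc1b at -0.25, Sp1 at -0.20, Gabpa at -0.13 and Pprc1 at -0.01, so the list did not share the direction of Myc as a whole.

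The messages that this ribosome translates differed from its protein genes in overexpression replicate 1. Over 13 messages encoded by mitochondrial DNA, the median deviation was -0.05 in overexpression replicate 1, where the 77 members had 0.24, and 0.15 in sponge replicate 3, where they had 0.14. With overexpression against the mutated control 10 of the 13 were above 0, with a median of 0.03. Their levels differed widely, with mt-Co1 at 5622 to 6827 CPM and mt-Nd3 at 0.449 to 0.669 CPM. The 2 mitochondrial ribosomal RNAs were both below 0, at -0.17 for mt-Rnr1 and -0.22 for mt-Rnr2 on the log2 scale, though RNA was selected by its poly(A) tail. Several nuclear sets stood as high as the members in overexpression replicate 1: cytosolic ribosomal protein genes had a median deviation of 0.22, nuclear oxidative phosphorylation genes 0.26 and import genes 0.25. Cytosolic ribosomal protein genes differed from the members in scramble replicate 1, at 0.12 against -0.01, and in overexpression replicate 3, at -0.14 against -0.04. With overexpression against the mutated control their median log2 fold change was 0.10 and that of the oxidative phosphorylation genes 0.13, beside 0.16 for the members. Above 0 were 84 of 88 cytosolic ribosomal protein genes and 71 of 80 oxidative phosphorylation genes, beside 75 of 77 members. The direction was thus shared with these 2 sets. In that edgeR test 1 of 80 oxidative phosphorylation genes and 0 of 88 cytosolic ribosomal protein genes passed, beside 0.539% of all genes. The differences between these sets were not tested.

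**Figure D5:**
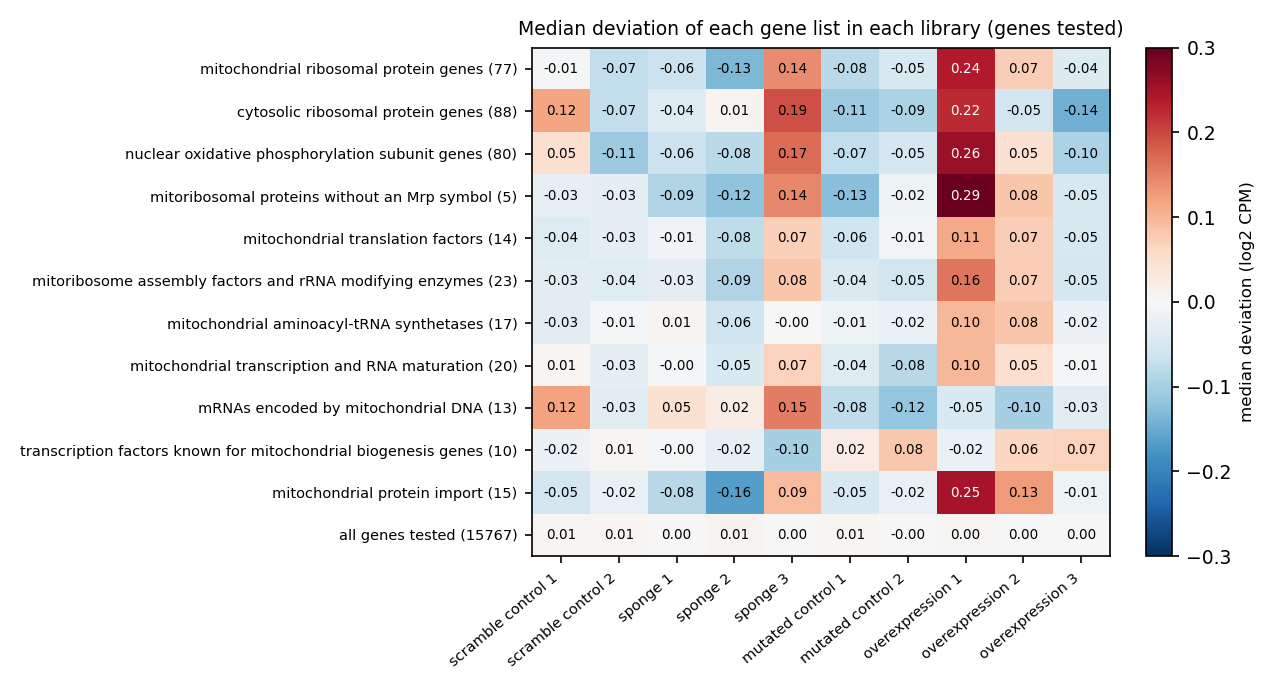
Median deviation of each gene list from its genes' means over the 10 libraries (log2 CPM, colour and printed value), by library; the number of genes tested is in brackets. Overexpression replicate 1 is high for most nuclear lists, with 0.24 for the 77 members, and not for messages encoded by mitochondrial DNA, at -0.05.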

How the data were processed

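The deposited values are raw whole-number counts of read pairs for each gene. They were made by the authors with featureCounts 2.0.1 and GENCODE vM30, per the file headers, with a minimum overlap of 10 bases and strand setting 0. Strand was thus not used to tell apart reads on bases that 2 genes share. The submitters' processing notes name FastQC 0.11.6, Trimmomatic, STAR 2.7.6a, Subread and the build GRCm38. Since that annotation belongs to a later build, gene positions are given as the table states them. The header command names 12 libraries, and 10 are analysed here.

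One field of the deposited lines holds the counts of 2 libraries run together, those of sponge replicate 3 and a scramble library. Each was split at the likeliest place (negative binomial, dispersion 0.1, likelihood ratio of 100 or more), and 51 genes, none a member, were left out. On 18 pairs of intact libraries joined on purpose, at least 99.9% of genes were recovered. The scramble replicate numbers follow the header order and are not certain.

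Counts were tested with edgeR 4.0.16 in R 4.3.3 (quasi-likelihood, robust, TMM factors, expression filter by group), with all 10 libraries in 1 fit of 4 group means, and Benjamini-Hochberg adjustment over 15767 genes. The functions were tested on simulated data. CPM use TMM factors. DESeq2 1.42.0 and limma-voom (limma 3.58.1) were alternatives, beside other scaling factors, no filter, length offsets, a replicate block and leaving out libraries.

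Members and lists were chosen with earlier results of these data known. Named members were the 4 highest and 4 lowest per contrast and the 3 highest and lowest in level per kilobase and in spread. To these were added 12 chosen by role. Other genes were named as examples.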

Additional observations from a re-analysis of the deposited data

How the results depend on the processing

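For overexpression minus mutated control, 0 members passed by edgeR; keeping genes of low counts gave 6 (4.67% of all genes in that fit) and DESeq2 gave 1 (3.17%). Leaving out 1 overexpression or sponge library at a time gave 0 to 1 (1 without overexpression replicate 3, beside 1.78% of all genes in that fit). Over all single libraries left out, the median log2 fold change ran from 0.0753 (without overexpression replicate 1) to 0.248. For mutated control minus scramble, a fit of only the 2 groups called 1 member (3.79% of all genes); leaving out libraries gave a median of -0.0703 to -0.000178. For any difference among the 4 groups, keeping genes of low counts gave 9 members (5.73% of all genes in that fit) and DESeq2 gave 1 (5.38%). The medians ran from -0.0506 to 0.0865 for sponge minus scramble and from 0.0495 to 0.226 for the difference of the 2 effects. The cause of these changes was not tested.

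With a replicate block, 0 members and 0 genes were called for overexpression minus mutated control, and the median was 0.157 by the numbers of the titles and 0.123 by those of the descriptions, with 7 and 5 members under an unadjusted p of 0.05. The share of all genes under that level was not counted in these 2 fits, so the 7 and 5 have no background beside them. Same-numbered libraries correlated at -0.41 to 0.16 by titles (1 of 13 pairs over 0.1) and at -0.41 to 0.10 by descriptions. By titles 2 and by descriptions 1 of 10 libraries were closest to their own number. In a group of 2 libraries the deviations from the group mean mirror each other. This check therefore cannot show whether same-numbered libraries shared a culture or batch.

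Single genes were followed only where named in the text. Among these, overexpression minus mutated control turned for Mrps18c (-0.0191 with length offsets, -0.0345 and -0.0667 with the replicate block by titles and descriptions, -0.000431 by DESeq2, -0.00175 by limma-voom, -0.00125 with only the 2 groups, -0.142 against scramble), for Mrps36 (-0.00246 with length offsets) and for Mrpl27 (0.0438 against scramble). Without both libraries of the joined field, Mrps28 turned for mutated control minus scramble (-0.046), and Mrps36 (0.0332) and Mrps12 (0.0422) for the difference of effects. Among these genes, leaving out 1 library turned overexpression minus mutated control for Mrpl24 (-0.112 to 0.00292), Mrpl27 (-0.128 to 0.0484), Mrpl3 (-0.00557 to 0.0985), Mrps12 (-0.0366 to 0.148), Mrps18c (-0.151 to 0.123) and Mrps36 (-0.0778 to 0.149). Among the genes named for each comparison it turned sponge minus scramble for Mrpl22 (-0.292 to 0.0308) and Mrpl58 (-0.0126 to 0.249), mutated control minus scramble for Mrps28 (-0.0441 to 0.264), and the difference of effects for Mrpl24 (-0.100 to 0.0112), Mrps12 (-0.144 to 0.0634) and Mrps36 (-0.131 to 0.0924). Over all 77, members above 0 went from 75 to 61 without overexpression replicate 1 (overexpression minus mutated control), from 49 to 7 without sponge replicate 3 (sponge minus scramble) and from 25 to 38 without scramble replicate 1 (mutated control minus scramble). With 2 or 3 libraries a group, fold changes of this size were within about 2 standard errors for most members.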
